A study of Homo sapiens with 9 samples.

Results

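Integrins are the transmembrane receptors by which cells hold on to the extracellular matrix, and each one is a dimer of an alpha and a beta subunit. The alpha subunit sets much of the choice of ligand, while the cytoplasmic tail of the beta subunit links the receptor to talin, kindlin and the cytoskeleton. Epithelial and carcinoma cells use laminin receptors (the alpha chains *ITGA3* and *ITGA6* with *ITGB1*, and *ITGA6* with *ITGB4* in hemidesmosomes), collagen receptors (*ITGA2* with *ITGB1*), fibronectin receptors (*ITGA5* with *ITGB1*) and the vitronectin and latent TGF-beta receptors built on *ITGAV*. The mRNAs of 10 subunits were followed here: the alpha chains *ITGA2*, *ITGA3*, *ITGA5*, *ITGA6* and *ITGAV* and the beta chains *ITGB1*, *ITGB4*, *ITGB5*, *ITGB6* and *ITGB8*. They were chosen by name, not by a measured value, and are 10 of the 27860 genes whose FPKM were summed over RefSeq transcripts. FPKM, the unit of the tables, counts sequenced fragments relative to the length of the transcript and the depth of the library, so levels can be compared between genes.

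The libraries came from DU145, an established human prostate cancer cell line. Each group had 3 libraries: control cells expressing a scrambled shRNA, cells expressing *FZD6* shRNA1 and cells expressing *FZD6* shRNA2. *FZD6* encodes a Frizzled receptor for Wnt ligands, and the hairpins were delivered to the same parental line by lentivirus, so every group carries a vector and a hairpin. No source used here says that the 3 libraries of a group came from separate cultures, so p-values measure the spread between these libraries, which may be technical. The estimated depth was 31.9 to 39.9 M fragments per library. Of the cell type markers, all 6 epithelial genes were expressed, with *KRT7* at a control mean of 1022 FPKM and *KRT18* at 272 FPKM, while *PTPRC*, *CD3E* and *LUM* were at 0 in every library. The leukocyte marker *CD14* had a control mean of 1.11 FPKM, and *LYZ* reached at most 1.14 FPKM. *CD68*, a lysosomal protein listed as a leukocyte marker, had the highest level of that list, with a control mean of 17.4 FPKM. It was the 1 of 6 leukocyte markers tested and rose with knockdown (log2 change 0.42), so that the summed level of these markers was 18.1 to 19.2 FPKM in control, 22.2 to 23.7 FPKM with shRNA1 and 26.0 to 27.9 FPKM with shRNA2. Of the epithelial genes, *CDH1* was lower after knockdown (log2 change −0.28), and *EPCAM* (0.26) and *KRT19* (0.15) were higher. Whether these shifts bear on the subunits was not tested. The fibroblast markers summed to at most 0.491 FPKM and the endothelial markers to at most 0.0990 FPKM. In a bulk library, fewer cells with a transcript and less of it per cell cannot be told apart.

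*FZD6* mRNA itself was at 20.9, 20.5 and 20.04 FPKM in the control libraries, at 9.47, 10.2 and 9.80 FPKM with shRNA1 and at 7.84, 8.79 and 7.69 FPKM with shRNA2. The groups did not overlap, and the 6 knockdown libraries were below the 3 control libraries (exact permutation test, two-sided, p = 0.0119, which is the lowest that 9 libraries split in this way can give). The mean fell by 52.1% with shRNA1 and fell by 60.5% with shRNA2.

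In control cells the beta chain *ITGB1* and the alpha chain *ITGA3* dominated the integrin mRNA. *ITGB1*, the common partner of most matrix-binding alpha chains, was at 317, 336 and 323 FPKM, and *ITGA3*, the alpha chain of the laminin-332 and laminin-511 receptor, was at 220, 219 and 215 FPKM. Together they made up 86.3% to 86.4% of the FPKM summed over the 10 subunits in the control libraries. *ITGA3* alone was 77.1% to 77.98% of the sum of the 5 alpha chains, and *ITGB1* was 93.2% to 93.6% of the sum of the 5 beta chains. Among the 12509 genes that averaged 1 FPKM or more over the libraries, *ITGB1* ranked 205 and *ITGA3* ranked 342 by control level.

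The next subunits lay far lower. *ITGA5*, the fibronectin receptor chain, had a control mean of 27.8 ± 0.167 FPKM (SD, n = 3), and *ITGA6*, the second laminin receptor chain, had 23.4 ± 1.09 FPKM. *ITGB5*, which pairs with *ITGAV* to bind vitronectin, had 14.8 ± 0.296 FPKM. *ITGB4*, whose long cytoplasmic tail anchors keratin filaments through plectin, had 8.14 ± 0.184 FPKM and *ITGAV* had 7.98 ± 0.465 FPKM. *ITGA2*, the collagen receptor chain, had 3.89 ± 0.0724 FPKM. Each step of this order was larger than the spread between control libraries except that between *ITGB4* and *ITGAV*, whose control ranges overlapped and whose order changed between libraries.

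**Figure D1:**
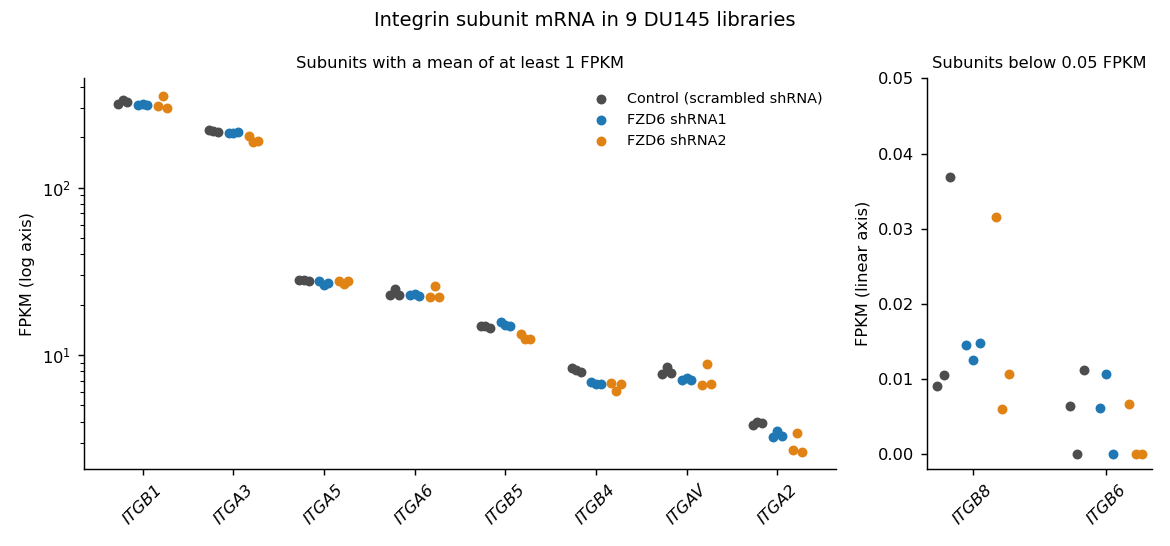
FPKM of the 10 integrin subunits in each library (points, 3 per group, colored by group), on a log axis for the 8 subunits with a mean of at least 1 FPKM (left) and on a linear axis for *ITGB8* and *ITGB6* (right). *ITGB1* and *ITGA3* stand far above the other subunits in all 9 libraries, and *ITGB8* and *ITGB6* stay below 0.05 FPKM.

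*ITGB6* and *ITGB8*, the *ITGAV* partners that activate latent TGF-beta, were hardly detected. *ITGB8* ranged from 0.00607 to 0.0369 FPKM over the 9 libraries, which corresponds to an estimated 1.33 to 13.1 fragments per library. *ITGB6* was listed at 0 in 4 libraries and reached at most 0.0112 FPKM, an estimated 1.80 fragments. Neither reached the mean of 1 FPKM required for testing, and a change in either was not detectable at this depth.

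The promoters of 3 subunits are shown, chosen to span these levels: *ITGB1* as the subunit with the highest level, *ITGA2* as a weakly expressed subunit that was lower after knockdown, and *ITGB6* as a subunit close to 0. Each is the 250 bases before the annotated start, from RefSeq promoters of GRCh38.p14, written 5′ to 3′ on the strand of the gene. Capitals mark the letters GGGCGG of the GC box on either strand.
*ITGB1* (chr10:32958231-32958480, minus strand): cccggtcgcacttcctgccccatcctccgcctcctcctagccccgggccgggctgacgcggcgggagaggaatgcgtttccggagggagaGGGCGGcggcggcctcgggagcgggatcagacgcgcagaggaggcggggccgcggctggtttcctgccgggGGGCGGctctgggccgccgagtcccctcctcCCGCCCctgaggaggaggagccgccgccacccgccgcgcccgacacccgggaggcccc
*ITGA2* (chr5:52989102-52989351, plus strand): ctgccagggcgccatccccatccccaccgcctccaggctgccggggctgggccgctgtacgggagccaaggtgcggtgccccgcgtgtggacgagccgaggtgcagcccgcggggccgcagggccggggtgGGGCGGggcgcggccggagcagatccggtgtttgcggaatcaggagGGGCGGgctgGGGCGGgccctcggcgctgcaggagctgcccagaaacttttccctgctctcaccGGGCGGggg
*ITGB6* (chr2:160200273-160200522, minus strand): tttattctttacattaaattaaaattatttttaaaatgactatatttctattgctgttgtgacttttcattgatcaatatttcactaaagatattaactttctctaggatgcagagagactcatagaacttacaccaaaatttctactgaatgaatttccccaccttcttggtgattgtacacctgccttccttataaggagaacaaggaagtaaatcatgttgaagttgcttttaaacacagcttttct

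The *ITGB1* window had 78.4% G and C with 32 CpG, the *ITGA2* window 76.4% with 26 CpG, and the *ITGB6* window 30.0% with 0 CpG. The median window of the 35116 in the table had 58.0% G and C with 11 CpG. The GC box occurred 3 times before *ITGB1*, 4 times before *ITGA2* and not in the *ITGB6* window, and 42.6% of all windows hold it at least once. The windows of *ITGB8* and of *ITGA2* were close in composition (71.2% and 76.4% G and C) although the mRNAs were not. Both strands were also searched for TGANTCA (the AP-1 site), TATAAA (the TATA box) and CCAAT (the CCAAT box), none of which contains the letters of the GC box, and none was found in these 3 windows. TATAAA occurred once in the *ITGA6* window, 32 bases before the most upstream annotated start of the gene. The transcript with that start held a mean of 5.91% of *ITGA6* FPKM. The other *ITGA6* transcripts start further downstream. Of all windows, 6.57% hold TGANTCA, 10.7% TATAAA and 32.0% CCAAT. The table held windows for 8 of the 10 subunits, and *ITGA3* and *ITGB4* had none.

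*ITGA6* is transcribed in forms that end in different cytoplasmic tails, and the tables resolve them in part. The GENCODE model linked to NM_000210 holds a 130-base exon (exon 25 of 26, chr2:172501772-172501901 in hg38) with its own stop codon, and the model linked to NM_001079818 skips that exon and reads on into the last exon of the gene. The coding bases that follow the last shared exon are shown for both, since they encode the ends of the protein that differ, with the stop codon in capitals.
With the exon (chr2:172501772-172501879, plus strand): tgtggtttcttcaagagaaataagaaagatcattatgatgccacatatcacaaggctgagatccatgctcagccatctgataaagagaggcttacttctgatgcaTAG
Without the exon (chr2:172504091-172504252, plus strand): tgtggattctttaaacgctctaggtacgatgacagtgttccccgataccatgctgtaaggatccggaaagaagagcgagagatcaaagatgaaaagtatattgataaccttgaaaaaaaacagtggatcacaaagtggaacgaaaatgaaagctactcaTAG

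The exon is held by 2 entries, NM_000210 and NM_001316306, which together made up 52.1%, 76.7% and 62.3% of *ITGA6* FPKM in the control libraries, 55.1%, 62.5% and 64.2% with shRNA1 and 59.3%, 56.6% and 60.4% with shRNA2. The entry without it, NM_001079818, made up 10.5% to 41.0% over the 9 libraries. Another 2 entries, NM_001365529 and NM_001365530, had no linked model and were not classified, and they held 6.96% to 19.96%. The groups overlapped, and the control libraries alone spanned the whole range of the share with the exon.

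The split between transcripts was less steady for other subunits. The protein-coding *ITGA2* transcript NM_002203 took between 0.903% and 99.1% of the FPKM of the gene, with the rest given to non-coding entries, and libraries of 1 group lay at both ends. For *ITGB4*, NM_001321123 took 15.5% to 86.7% and NM_001005731 took 8.14% to 77.8%. In contrast, NM_002211 held 94.2% to 97.1% of *ITGB1*, and NM_001354765 held 56.0% to 72.7% of *ITGB5*. *ITGA3*, *ITGA5* and *ITGB8* had a single entry each. The gene sums, and not the transcripts, were therefore tested.

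**Figure D2:**
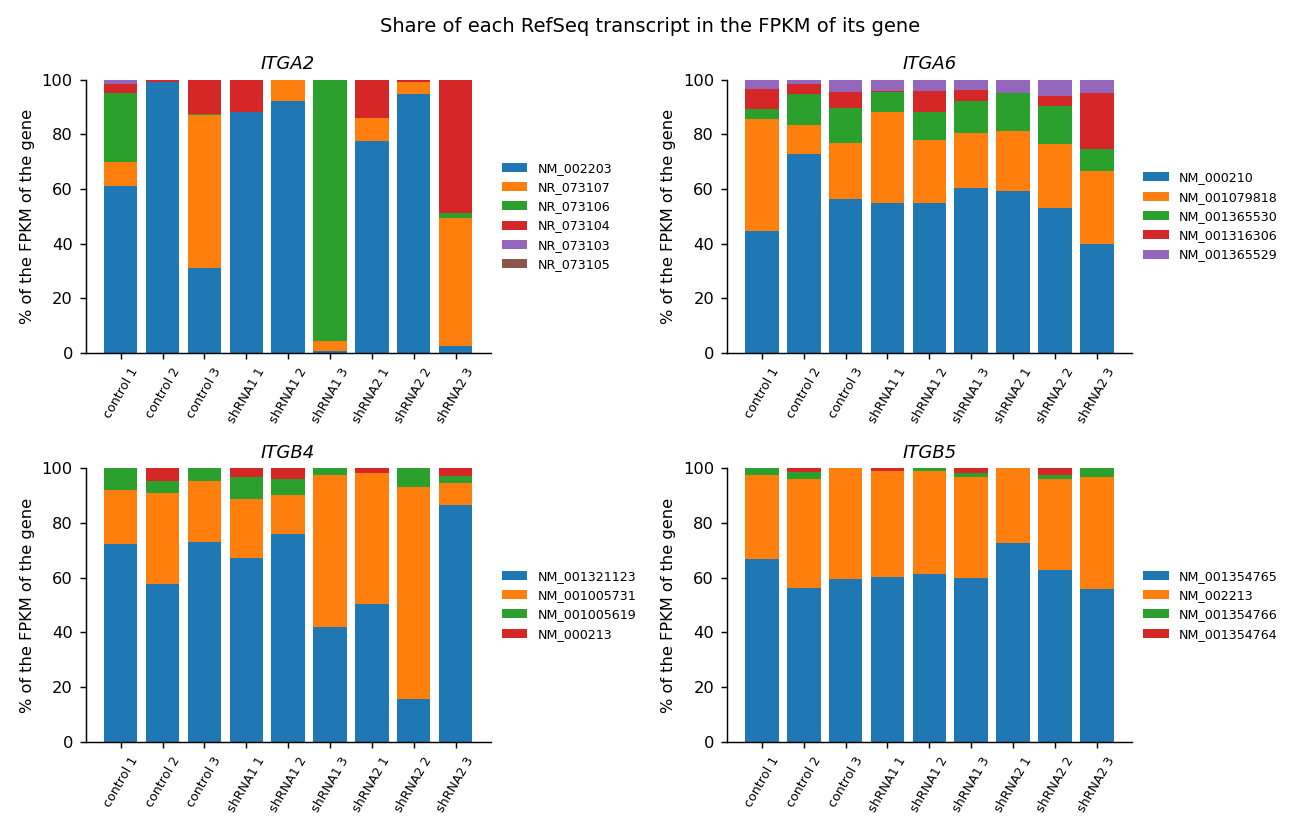
Share of each RefSeq transcript (colors) in the summed FPKM of *ITGA2*, *ITGA6*, *ITGB4* and *ITGB5*, in percent, for each library (bars). Shares of *ITGA2* and *ITGB4* transcripts swing between libraries of the same group, whereas NM_001354765 of *ITGB5* keeps to 56.0% to 72.7%.

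When both hairpins were pooled as *FZD6* knockdown, the mRNAs of *ITGB4* and *ITGA2* were lower, and no tested subunit passed as higher. Taken by hairpin, *ITGB4* passed with both and *ITGA2* with shRNA2 only. Of the 8 subunits with a mean of at least 1 FPKM, 2 were lower and 0 were higher at an adjusted p under 0.05 when limma was run on the 6 knockdown and 3 control libraries, with values as log2(FPKM + 1) and Benjamini-Hochberg adjustment over 12509 genes. This scale understates the changes of low genes. The background was 20.6% of all tested genes called in either direction, 7.10% called lower and 13.5% called higher. That split, 888 lower and 1690 higher, became 1058 lower and 1047 higher after quantile normalization and 674 lower and 780 higher with the length trend removed. All 8 estimates were below 0, with a median log2 change of −0.09 against 0.03 over all tested genes. With the length trend removed, *ITGA6* moved to 0.033, *ITGA5* to −0.013 and *ITGAV* to −0.028. The estimates other than that of *ITGA6* stayed below 0. At an unadjusted p under 0.05, 2 subunits passed as well, beside 35.4% of all tested genes.

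*ITGB4* (chr17:75721459-75757818, GRCh38.p14) was at 8.32, 8.15 and 7.95 FPKM in the control libraries, at 6.85, 6.73 and 6.69 FPKM with shRNA1 and at 6.84, 6.13 and 6.76 FPKM with shRNA2. No library with an *FZD6* hairpin reached the lowest control value, and the ranges of the hairpins overlapped. The log2 change was −0.25 (SE 0.0353, limma adjusted p = 0.00326), a fall of the mean by 18.1%.

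*ITGA2* (chr5:52989352-53094779) was at 3.82, 3.96 and 3.90 FPKM in the control libraries, at 3.25, 3.53 and 3.30 FPKM with shRNA1 and at 2.70, 3.42 and 2.65 FPKM with shRNA2. Here too the 6 knockdown libraries were all below the control libraries, while shRNA2 library 2 lay among those of shRNA1. The log2 change was −0.25 (SE 0.0746, limma adjusted p = 0.0479). This call was near the threshold and passed under 5 of 19 alternative settings. With the trend of each library in transcript length removed, the change was −0.13 (adjusted p = 0.200), and *ITGA2* transcripts have a median length of 7869 bases. *ITGB4* kept its call there, at −0.19 (adjusted p = 0.0407), and under all 20 settings judged by an adjusted p. It did not meet the study's criteria (p under 0.01 and at least 1.2-fold) as applied here to log2(FPKM + 1). On that scale its change is smaller than in FPKM, where the control mean was 1.22 times the knockdown mean.

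*ITGB4* and *ITGA2* were the 2 subunits whose 6 knockdown libraries all lay below the 3 control libraries, which held for 9.46% of all tested genes. The other 6 subunits did not pass the test for knockdown against control. *ITGAV* had a log2 change of −0.12 (95% confidence interval −0.30 to 0.06), *ITGA3* −0.10 (−0.21 to 0.01), *ITGB5* −0.07 (−0.25 to 0.10), *ITGB1* −0.04 (−0.15 to 0.07), *ITGA5* −0.04 (−0.10 to 0.02) and *ITGA6* −0.02 (−0.13 to 0.10). The interval of *ITGAV* reaches to falls as large as those of both called subunits, and that of *ITGB5* only to that of *ITGA2*. The intervals of *ITGA5* and *ITGA6* reach to neither.

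**Figure D3:**
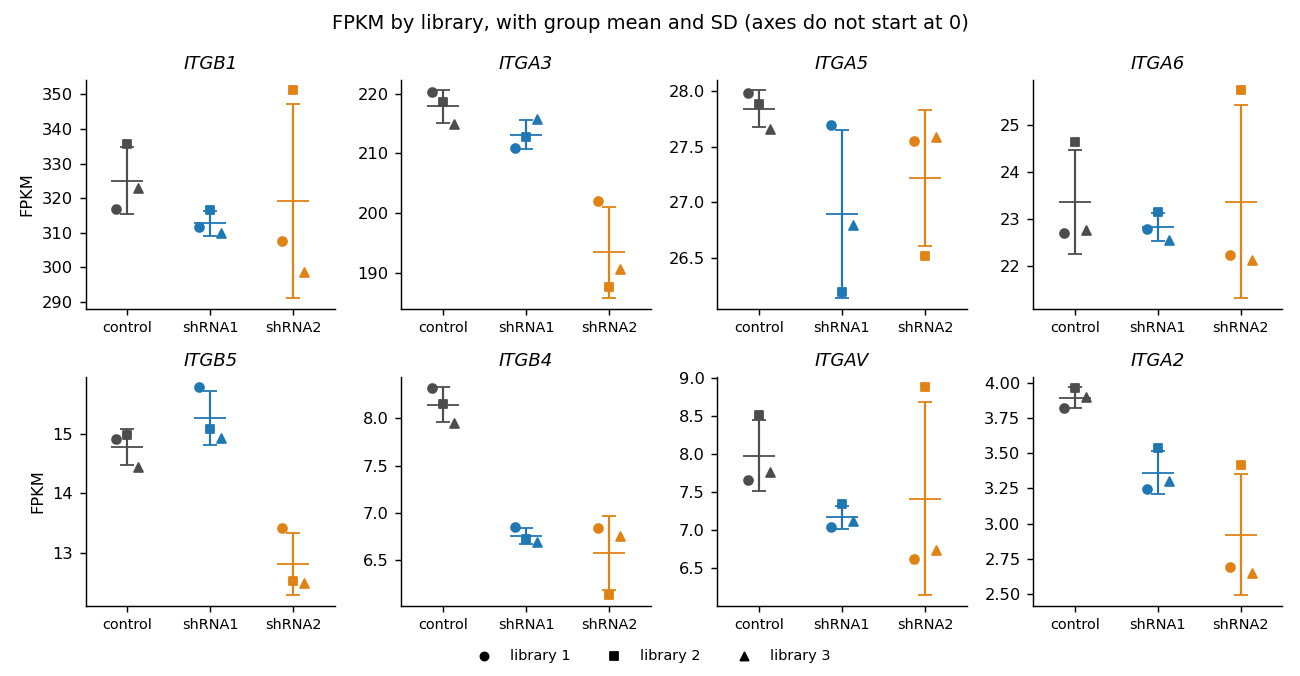
FPKM of the 8 tested subunits in each library (points, with a marker for the library number) with the group mean and SD (bars, n = 3), on axes that do not start at 0. *ITGB4* and *ITGA2* are lower in all 6 knockdown libraries than in all 3 control libraries, *ITGA3* and *ITGB5* are lowest with shRNA2, and shRNA2 library 2 is the highest of all for *ITGB1*, *ITGA6* and *ITGAV*.

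By hairpin, *ITGB4* passed with both, and *ITGA2*, *ITGA3* and *ITGB5* passed with shRNA2. With shRNA1, 1 of the 8 tested subunits was lower (*ITGB4*) and 0 were higher, beside a background of 18.8% of all tested genes called and 7.19% called lower. With shRNA2, 4 were lower (*ITGB4*, *ITGA2*, *ITGA3* and *ITGB5*) and 0 were higher, beside a background of 26.7% called and 11.4% called lower. Both comparisons use the same control libraries. With the length trend removed, *ITGB4* no longer passed with shRNA1 (−0.17, adjusted p = 0.101), and with protein-coding accessions only, *ITGA2* no longer passed with shRNA2 (−0.46, adjusted p = 0.601).

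*ITGB4* changed by −0.24 with shRNA1 (SE 0.0397, adjusted p = 0.00943) and by −0.27 with shRNA2 (SE 0.0397, adjusted p = 0.00350) in limma. The difference between the hairpins was −0.04 (95% confidence interval −0.13 to 0.06). *ITGA2* changed by −0.17 with shRNA1 (adjusted p = 0.139) and by −0.33 with shRNA2 (adjusted p = 0.0145), and the difference of −0.16 had an interval of −0.32 to 0.01.

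*ITGA3* and *ITGB5* differed between the hairpins. *ITGA3* (chr17:50056110-50090481) was at 211, 213 and 216 FPKM with shRNA1, within or just below the control range, and at 202, 188 and 191 FPKM with shRNA2. The 3 shRNA2 libraries were below all the others. The log2 change was −0.03 with shRNA1 and −0.17 with shRNA2 (SE 0.0325, limma adjusted p = 0.00907), and the direct difference was −0.14 (adjusted p = 0.0457). That difference passed under 5 of 20 alternative settings. With the length trend removed, *ITGA3* no longer passed with shRNA2 (−0.13, adjusted p = 0.0605).

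*ITGB5* (chr3:124761948-124901418) was at 14.9, 15.0 and 14.4 FPKM in the control libraries, at 15.8, 15.1 and 14.9 FPKM with shRNA1 and at 13.4, 12.5 and 12.5 FPKM with shRNA2. Again shRNA2 stood below the other groups, whereas shRNA1 overlapped the control. The log2 change was 0.04 with shRNA1 (95% confidence interval −0.04 to 0.13) and −0.19 with shRNA2 (SE 0.0363, limma adjusted p = 0.00884), and the direct difference was −0.24 (adjusted p = 0.0106), which passed under all 20 settings judged by an adjusted p and not by the study's criteria. In the comparison of shRNA2 with shRNA1, these were the 2 of 8 subunits called, both lower, beside a background of 6.71% called and 4.79% called lower. For *FZD6* itself the same comparison gave −0.25 (adjusted p = 0.0273), and whether this bears on the subunits was not tested.

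**Figure D4:**
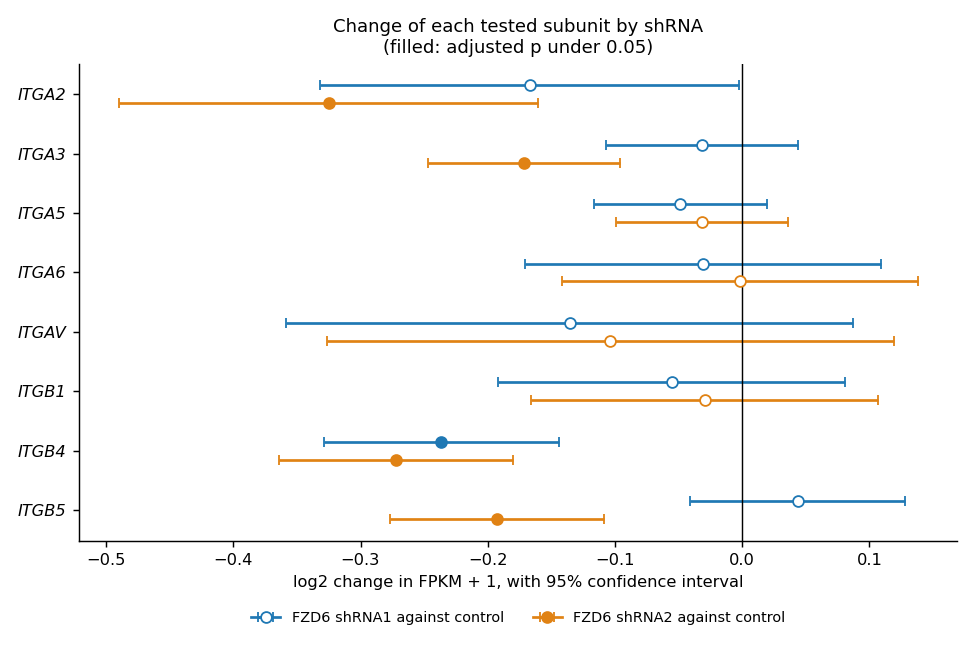
Log2 change in FPKM + 1 against control for each tested subunit with shRNA1 and with shRNA2 (points), with 95% confidence intervals from limma, and filled points where the adjusted p was under 0.05. *ITGB4* is filled for both hairpins, and *ITGA2*, *ITGA3* and *ITGB5* are filled for shRNA2 only.

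The remaining subunits passed in no comparison. *ITGA5* held between 26.2 and 28.0 FPKM and *ITGA6* between 22.1 and 25.7 FPKM over the 9 libraries. *ITGAV* was at 7.66, 8.51 and 7.77 FPKM in control, at 7.04, 7.34 and 7.12 FPKM with shRNA1 and at 6.62, 8.88 and 6.73 FPKM with shRNA2. *ITGB1* was at 312, 317 and 310 FPKM with shRNA1 and at 308, 351 and 299 FPKM with shRNA2. For *ITGAV* and *ITGB1* the shRNA1 libraries and 2 of the shRNA2 libraries were below the lowest control library, for *ITGB1* by as little as 316.7 against 316.9 FPKM, while shRNA2 library 2 was above the highest. Without that library the *ITGAV* change with knockdown was −0.17 (adjusted p = 0.0253) and the *ITGB1* change was −0.07 (adjusted p = 0.101), and the number of subunits called became 3 for knockdown, 3 for shRNA1 (*ITGB4*, *ITGA2* and *ITGAV*) and 5 for shRNA2, all lower. The background of genes called lower grew as well, to 9.75%, 10.9% and 15.5%.

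The balance of alpha to beta mRNA was compared for the known pairs, as a ratio of FPKM within each library. An mRNA ratio does not give the amount of the dimer at the cell surface. The 5 alpha chains summed to 0.845 to 0.891 of *ITGB1* in the control libraries, and *ITGA3* alone to 0.695, 0.651 and 0.666.

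The ratio of *ITGA6* to *ITGB4*, the hemidesmosomal pair, was 2.73, 3.02 and 2.86 in control, 3.33, 3.44 and 3.37 with shRNA1 and 3.25, 4.198 and 3.28 with shRNA2. All knockdown libraries were above all control libraries. *ITGA6* was thus in excess of *ITGB4* in every library. The mean ratio was 2.87 ± 0.147 (SD, n = 3) in control, 3.38 ± 0.0578 with shRNA1 and 3.58 ± 0.539 with shRNA2. *ITGB4* alone was already lower in all knockdown libraries, as were 9.46% of all tested genes, while *ITGA6* overlapped control. The ratio is therefore no separate result. How often ratios of other genes set the groups apart was not tested.

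For the collagen receptor, *ITGA2* to *ITGB1* was 0.0118 to 0.0121 in control, 0.0104 to 0.0112 with shRNA1 and 0.00877 to 0.00973 with shRNA2. The 3 groups did not overlap, and *ITGA2* alone was already lower than control in all knockdown libraries. *ITGAV* to *ITGB5* was 0.513 to 0.568 in control, 0.446 to 0.487 with shRNA1 and 0.494 to 0.709 with shRNA2. There the shRNA1 libraries lay below control, and the shRNA2 libraries covered the control range. *ITGA3* to *ITGB1* was 0.672 to 0.696 with shRNA1, and 0.657, 0.534 and 0.638 with shRNA2. The shRNA1 libraries overlapped control, whereas 2 of the shRNA2 libraries were below it. *ITGA5* to *ITGB1* had group means of 0.0857, 0.0860 and 0.0858, and *ITGA6* to *ITGB1* of 0.0719, 0.0730 and 0.0732, with overlapping groups in both. *ITGAV* to *ITGB1* was 0.0241 to 0.0254 in control, 0.0226 to 0.0232 with shRNA1 and 0.0215 to 0.0253 with shRNA2, so that shRNA1 lay below control and shRNA2 overlapped it. No ratio was formed with *ITGB6* or *ITGB8*.

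**Figure D5:**
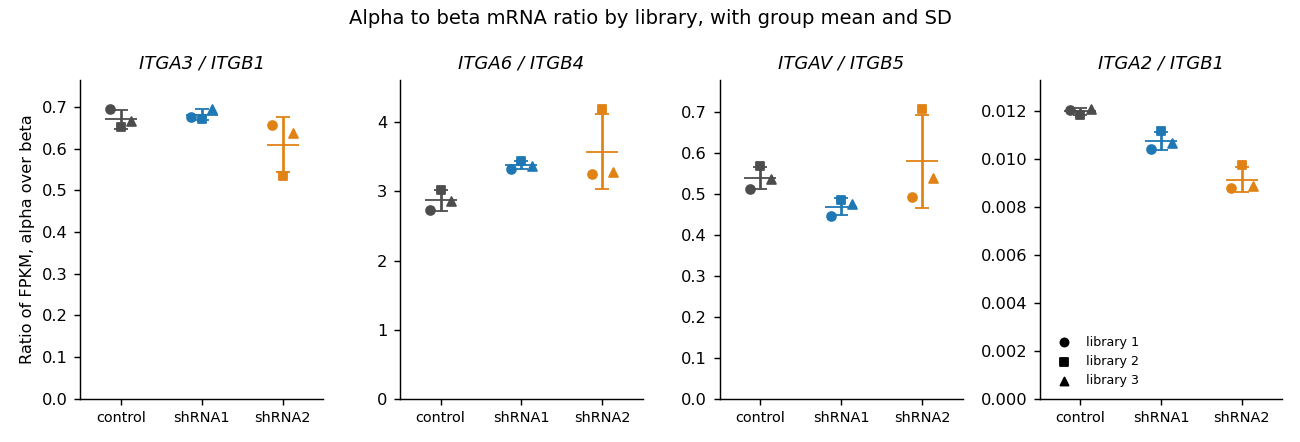
Ratio of alpha to beta FPKM within each library (points, with a marker for the library number) for 4 pairs, with the group mean and SD (bars, n = 3). *ITGA6* over *ITGB4* is higher in all 6 knockdown libraries, *ITGA2* over *ITGB1* is lower, and shRNA2 library 2 stands apart in the first 3 panels.

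The pattern of the 3 subunits with the strongest statistics was compared with that of every other tested gene by Pearson's r of log2 values over the 9 libraries. Among the closest to *ITGB4* were *IPW* (r = 0.991) and *FADS2* (r = 0.986), a fatty acid desaturase. For *ITGA2* they were *LGR4* (r = 0.987), an R-spondin receptor, *TRIM33* (r = 0.980) and *TOP2A* (r = 0.978), the topoisomerase of dividing cells. For *ITGA3* they were *TGFBI* (r = 0.982), a secreted matrix protein that binds integrins, *KIAA0930* (r = 0.976) and *MANEAL* (r = 0.972). These are the highest of many values over 9 shared libraries that fall into 3 groups.

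The other integrin genes added little mRNA. Of 16 further subunits, 3 reached a mean of 1 FPKM: *ITGB2*, the beta chain of leukocyte integrins, with a control mean of 13.8 FPKM, *ITGAE* with 3.29 FPKM and *ITGA2B* with 1.24 FPKM. *ITGAE* rose with knockdown by 0.25 (SE 0.0303, limma adjusted p = 0.00266), beside 13.5% of all tested genes called higher. *ITGB2* had a log2 change of −0.25 that did not pass (limma adjusted p = 0.185), with levels from 9.67 to 14.3 FPKM over the libraries. With shRNA2 alone, 1 of these 3 was called lower and 1 higher, beside 26.7% of all tested genes called and 11.4% called lower. The FPKM of the 16 subunits summed to 19.8 to 20.8 in control, 19.98 to 21.2 with shRNA1 and 16.9 to 17.6 with shRNA2. *ITGB3*, the partner of *ITGAV* in the classical vitronectin receptor, had a control mean of 1.11 FPKM but a mean over all libraries that was too low for testing. The alpha chains of leukocytes, *ITGAL*, *ITGAM* and *ITGAX*, stayed at or below 0.0616 FPKM.

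Many matrix ligands of these receptors were lower after knockdown. Of 25 tested ligand genes, 12 fell and 0 rose, beside 7.10% of all tested genes called lower (median log2 change −0.19, against 0.03 over all tested genes). The laminin chains *LAMA5* (−0.54, SE 0.0479, limma adjusted p = 0.000789), *LAMB2* (−0.40, adjusted p = 0.000490) and *LAMB1* (−0.33, adjusted p = 0.00299) and the basement membrane linker *NID1* (−0.36, adjusted p = 0.0346) had the largest changes. The other 8 that fell were *THBS1*, *COL4A1*, *COL4A2*, *FN1*, *LAMA1*, *LTBP1*, *LAMC1* and *LAMC3*. With the trend in transcript length removed, 9 of 23 fell and 2 rose, beside 674 of 11742 tested genes called lower and 780 called higher.

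Genes that activate or inactivate the integrin tail were called in both directions, beside 7.10% of all tested genes called lower and 13.5% called higher. Of 16 tested, 4 fell, among them the activator talin, *TLN1* (−0.43, SE 0.0335), *FLNA* (−0.31), a filamin that competes with talin, and the Rap1 exchange factor *RAPGEF1* (−0.23). The 3 that rose were *SLC3A2* (0.24), the CD98 heavy chain that binds beta tails, *CIB1* (0.14) and *ITGB1BP1* (0.14), an inhibitor of the *ITGB1* tail. Of 31 tested focal adhesion genes, 5 fell and 0 rose, beside the same shares of all tested genes. The tensins *TNS3* (−0.45) and *TNS2* (−0.27), the kinase *PTK2B* (−0.22) and the actin crosslinker *ACTN4* (−0.14) came ahead of *VCL*, vinculin (−0.11).

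Among 6 tested hemidesmosomal partners of *ITGA6* and *ITGB4*, only *DST*, the dystonin gene that encodes BPAG1, fell (−0.40, SE 0.118, limma adjusted p = 0.0445). Of all tested genes, 7.10% were called lower. *DST* no longer passed with the trend in transcript length removed. Of 14 tetraspanins and lateral partners, 2 rose, *PLAUR*, the urokinase receptor (0.22), and *CD63* (0.12), and 0 fell, a share close to the 13.5% of all tested genes called higher. Of 18 genes of integrin trafficking, 2 fell, *CLTC*, the clathrin heavy chain (−0.28), and *RAB11FIP3* (−0.19), and 0 rose, beside the same 7.10% called lower. Without shRNA2 library 2, a setting chosen after the data were seen, as was the removal of the length trend for these lists, 5 trafficking genes fell and 5 tetraspanins and partners rose, while 9.75% of all tested genes were called lower and 16.1% higher.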

How the data were processed

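RNA-seq of DU145 cells was analyzed in 9 libraries, 3 per group, with groups taken from the deposited labels. The authors prepared stranded mRNA libraries, aligned them by STAR and used Cufflinks for FPKM, which the deposited tables list per RefSeq transcript. Per the labels the build is hg38, which fits the loci, although the methods name mm10. FPKM carries no counts, so no count model was used. Depth was estimated from the confidence bounds.

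FPKM were summed over the accessions of each gene, paired through a RefSeq table of GRCh38.p14 (72645 of 73240 accessions matched), which left 27860 genes after 42 with an unusable entry were removed. The 12509 genes that averaged 1 FPKM or more were tested as log2(FPKM + 1) in R 4.3.3 by limma 3.58.1, and genes with a Benjamini-Hochberg adjusted p under 0.05 were called. Knockdown (6 libraries) was compared with control in a two-group model, and the shRNAs in a model with 3 groups. *FZD6* was also tested by an exact permutation test. On simulated data with 200 of 12509 genes planted for knockdown against control, 65% were called at 1.2-fold and 91% at a log2 change of 0.5, with 5 false calls. The simulation drew noise separately for each gene and gave both hairpins the same change. Its figures therefore do not give the share of false calls in the measured data.

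The named genes were the 10 subunits, *FZD6*, up to 4 rises and 4 falls per list among called genes, and the 3 genes closest to each of the 3 subunits with the largest moderated statistics. The other ligands that fell, *VCL* and the untested integrin genes were named after their values were seen. Some genes that this rule names are not reported here. The subunits, lists and tests were chosen with earlier results of these data known. Transcript length came from GENCODE v29 (11742 tested genes), and its trend in each library was fitted by lowess with a span of 0.3. Alternatives were other pseudocounts, filters, scalings and entry sets, the length trend, a replicate block and leaving out each library. Another was the study's criteria (p under 0.01 and 1.2-fold), applied to log2(FPKM + 1). Figures were drawn with Python 3.11.15 and matplotlib 3.10.9.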

Additional observations from a re-analysis of the deposited data

Results flagged for a closer look

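Library 2 of shRNA2 stood apart from the other 5 knockdown libraries in 7 of 16 measures of the subunits. About 0.8 would be set apart by chance if the measures were separate, since such a gap arises in about 1 in 20 groups. They are not separate, since the ratios are built from the same subunits, and the 6 libraries hold both hairpins. Whether the count exceeds chance was therefore not tested. The gap to the nearest library, as a share of the range of the 6, was 0.718 for *ITGA6* (at 25.7 FPKM), 0.684 for *ITGAV* (at 8.88 FPKM), 0.658 for *ITGB1* (at 351 FPKM) and 0.781 for *ITGB4* (at 6.13 FPKM). It was the highest of the 6 for *ITGA6*, *ITGAV* and *ITGB1* and the lowest for *ITGB4*. The same library was set apart in the ratios *ITGA3* to *ITGB1* (0.641, at a ratio of 0.534), *ITGA6* to *ITGB4* (0.801, at 4.198) and *ITGAV* to *ITGB5* (0.648, at 0.709). The cause was not tested.

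The hairpins differed in *FZD6* and in 2 of the 8 tested subunits, beside 6.71% of all tested genes called and 4.79% called lower. For *ITGA3* the call passed under 5 of 20 alternative settings. The difference between shRNA2 and shRNA1 was −0.25 on the log2 scale for *FZD6* (limma adjusted p = 0.0273), −0.14 for *ITGA3* (adjusted p = 0.0457) and −0.24 for *ITGB5* (adjusted p = 0.0106), and in each the 3 shRNA2 libraries were below the 3 shRNA1 libraries.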

How the results depend on the processing

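The number of subunits called for knockdown against control, 2 in the report, was 1 with a pseudocount of 0.1 or 0.01, with no filter, with a filter of 5 FPKM, with the length trend removed and with protein-coding accessions only, and 0 by the study's criteria. *ITGA2* was not tested with the 5 FPKM filter, for which its mean is too low, and lost its call under the others, while *ITGB4* kept it except by the study's criteria. For shRNA1 the count of 1 became 0 with the length trend removed and 0 by the study's criteria, and for shRNA2 the count of 4 became 1 by the study's criteria and 3 with the length trend removed (*ITGA3* lost), with protein-coding accessions only (*ITGA2* lost) and with the 5 FPKM filter (*ITGA2* not tested). For shRNA2 against shRNA1 the count of 2 became 1 with a pseudocount of 0.1, with median centring, with quantile normalization and with protein-coding accessions only, and 0 by the study's criteria. Leaving out each library in turn gave 1 to 3 for knockdown, 1 to 3 for shRNA1, 4 to 5 for shRNA2 and 1 to 2 between the hairpins. Among the recomputed log2 changes of single genes, 595 kept their direction and side of the threshold, 34 lost a call, 8 gained one and 19 reversed.

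The direction reversed in no called change. With the length trend removed, *ITGA6* moved to 0.033 for knockdown, 0.020 for shRNA1 and 0.047 for shRNA2, and *ITGA3* to 0.0071 for shRNA1. Without single libraries, *ITGA6* ranged from −0.047 to 0.020 for knockdown, −0.050 to 0.0058 for shRNA1 and −0.070 to 0.035 for shRNA2, and *ITGB1* from −0.10 to 0.016 for shRNA2. Between the hairpins the ranges were −0.0013 to 0.038 for *ITGA5*, −0.039 to 0.065 for *ITGA6*, −0.089 to 0.098 for *ITGAV*, −0.045 to 0.071 for *ITGB1* and −0.061 to 0.0076 for *ITGB4*. The cause was not tested. With protein-coding accessions only, *ITGA2* to *ITGB1* moved from 0.0120 to 0.00761 in control, from 0.0107 to 0.00653 with shRNA1 and from 0.00912 to 0.00541 with shRNA2. The groups were no longer set apart under that setting. There *ITGA2* was at 1.21 to 3.93 FPKM in control, 0.0298 to 3.26 FPKM with shRNA1 and 0.0646 to 3.23 FPKM with shRNA2.

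Libraries of different groups share replicate numbers, but the numbers did not pair them: correlations of same-numbered libraries lay between −0.071 and 0.111. With the replicate number as a block, 1 subunit was called for knockdown, 1 for shRNA1, 4 for shRNA2 and 1 between the hairpins. With the block and the length trend removed, the counts were 1, 0, 3 and 2, and *ITGA6* (0.033, 0.020 and 0.047) and *ITGA3* (0.0071) had the same values as without the block.

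Limits: each group had 3 libraries, FPKM hold no counts, and *ITGB6* and *ITGB8* rest on a few fragments.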
